A study of Sus scrofa with 4 samples.

Results

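C/D box small nucleolar RNAs (snoRNAs, named SNORD) left fragments in small RNA libraries of primary pig vascular stem cells, and these fragments are described here family by family. A feature was taken when the deposited files listed it under Rfam, a collection of RNA families, with a family name that starts with SNORD. SnoRNAs under another Rfam name, such as U3, were not taken and count among the other Rfam families below. The rule found 72 SNORD families among 433 Rfam families in the 4 libraries. Of these, 24 had 100 or more reads over the 4 libraries and are described below. They held 98.5% of the 43270 SNORD reads. The other 48 families were below that minimum, and 33 of them had fewer than 10 reads. The families nearest to the minimum were SNORD44 with 106 reads and SNORD50 with 144 inside it, and SNORD37 with 94 reads and SNORD22 with 82 outside it.

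C/D box snoRNAs guide the methylation of the 2′-hydroxyl group of ribosomal RNA. Each pairs with its target and brings fibrillarin, the methyltransferase, together with its partner proteins. Most are cut out of introns, either of genes that encode ribosomal or translation proteins or of long non-coding host genes such as GAS5, SNHG1 and ZFAS1, so one transcript can supply several snoRNAs. A few are orphans with no known ribosomal target, among them the tandem copies of SNORD113 and SNORD114, which lie in the imprinted DLK1-DIO3 domain and are expressed from the maternal chromosome together with a large cluster of miRNAs. Host genes and targets are given below as known for the human genes.

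The libraries came from 2 cultures at passage 1, IVSC from longissimus dorsi muscle and SVSC from subcutaneous fat, each sequenced undifferentiated and after MDI, with 1 library in each of the 4 groups. MDI is a medium that induces adipogenesis. It combined insulin at 5 mg/l with IBMX, which blocks phosphodiesterases, at 0.5 mM and the glucocorticoid dexamethasone at 0.25 µM. The latter agents were removed before growth medium returned at day 6, and the cells then had a further 3 or 4 days. Serum was at 20% throughout. The sources used here do not give the harvest day of each MDI culture or the animals behind the cultures, and their labels call both cultures adipose-derived although IVSC came from muscle. The ratios below compare single libraries, so no spread between replicates stands behind them, and each interval covers counting error at most.

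Summed over all listed features, the files held 21590587 reads for IVSC, 20739428 for IVSC MDI, 25725720 for SVSC and 5166494 for SVSC MDI. These sums are the library totals used below, also for reads counted once. A read listed at several entries adds to them more than once. The SVSC MDI library was the shallowest, and its make-up also stood apart: 55% of its reads were on miRNA hairpins and 38.5% on Ensembl non-coding RNAs, against 70.2% to 77% and 14% to 19.3% in the other 3 libraries. The part of this difference in the results on SVSC MDI was not tested, and those results are given with a scaling to hairpin reads where it changes a call. The 3 skeletal muscle miRNAs miR-206, miR-133a and miR-1 were read in all 4 libraries, at a summed 3802 RPM (reads per 1000000 reads of the library) in IVSC and 790.4 after MDI, and 1284 in SVSC and 428.7 after MDI. miR-206 alone gave 2991 RPM in IVSC and 99.7 in IVSC MDI, against 1.94 in SVSC and 0.774 in SVSC MDI. miR-1 was at 762 RPM in IVSC and 630 in IVSC MDI, and at 1267 in SVSC and 329 in SVSC MDI. It thus made up most of the SVSC sum. miR-133a was at 48.0 RPM in IVSC and 61.0 in IVSC MDI, and at 15.1 in SVSC and 98.9 in SVSC MDI. The mesenchymal miR-143 was at 178290 or more RPM in each library, the blood cell miR-142 at 3.77 to 18.5 and the endothelial miR-126 at 31.7 to 82.3. miR-145, listed with miR-143, was at 649 RPM in IVSC and 624 in SVSC, and at 4002 in IVSC MDI and 3706 in SVSC MDI. The liver miR-122 was at 6.44 RPM in IVSC and 2.22 in IVSC MDI, and at 16.8 in SVSC and 0.968 in SVSC MDI. Epithelial miR-205 had at most 9 reads and miR-200c was not listed.

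Fragments of 16 to 35 nt were sequenced, while the Rfam entries that led the 24 families were 62 to 91 nt long, so the reads are pieces of snoRNAs and not whole molecules. A level below is the reads of a family summed over its entries, in RPM of all reads in the library. Rfam lists near-identical entries of a family from several species. A read that fits several of them was taken to be listed at each, although the sources used here do not give the rule. The sum was a median 1.97 times the reads counted about once, that is, the reads of the leading entry plus those matching another entry uniquely. It was exact for SNORD48 and SNORD64, which have 1 entry with reads, and 11.5 times for SNORD28 and 11 times for SNORD95. Many ratios of sums are therefore given with the ratio of reads counted once and its exact 95% interval, and the others are on sums alone. A family was called higher or lower when its summed reads differed at least 2-fold with an interval that excluded 1. This interval treats each listing as a separate read. Where entries share reads it is therefore too narrow even for counting error, and calls on sums, also those of the background, are too easily made. The same call rule was run on all 97 Rfam families with 100 or more reads, as background. These 97 include the 24 SNORD families and, among the others, many miRNA families.

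SNORD fragments were a small class in every library. They gave 506 RPM in IVSC and 667 in IVSC MDI, from 10924 and 13843 reads. In the fat culture they gave 653 RPM in SVSC and 330 in SVSC MDI, from 16798 and 1705 reads. Reads with SNORD names were thus most frequent in IVSC MDI and SVSC and least frequent in SVSC MDI. Counted once, SNORD reads were 1.37 times as frequent in IVSC MDI as in IVSC (interval 1.33 to 1.41), and 2.56-fold lower in SVSC MDI than in SVSC (2.40 to 2.74). H/ACA box snoRNAs (SNORA), which guide pseudouridylation instead, were at 312, 229, 257 and 128 RPM in the same order. In SVSC the SNORA difference depended on the setting: SVSC MDI was 2.01-fold lower on sums and 1.25-fold lower counted once, but 1.09 times SVSC (0.972 to 1.23) when reads counted once were scaled to hairpin reads. In bulk cultures such as these, fewer cells of a type and less RNA per cell cannot be told apart.

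A few families supplied most of the fragments. SNORD52, carried by the non-coding host SNHG32 and a guide for the large ribosomal subunit, had the most reads, at 88.6 RPM in IVSC and 152 in SVSC, and at 41.9 in IVSC MDI and 13.9 in SVSC MDI. It was the leading family in both undifferentiated libraries and fell well behind others in both MDI libraries. SNORD99, from the SNHG12 host, led in IVSC MDI at 137 RPM, against 58.7 in IVSC, 67.8 in SVSC and 40.5 in SVSC MDI. SNORD12, the snoRNA of ZFAS1, was at 29.97 RPM in IVSC and 31.7 in SVSC MDI and stood at 81.1 in IVSC MDI and 89.9 in SVSC. SNORD51, from the intron of the translation elongation factor gene EEF1B2, gave 57.2 RPM in IVSC and 70.0 in IVSC MDI against 32 in SVSC and 13.9 in SVSC MDI.

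Some families, not all of them abundant, were called in no comparison. A family without a call can still differ by less than 2-fold. SNORD28, one of the SNHG1 snoRNAs, stayed between 55.4 and 68.6 RPM, and its reads counted once between 5.03 and 6.30 RPM. Its place among the leading families on sums came from 21 entries sharing reads. Compared per length, on the leading entry alone, SNORD52 gave 130 RPM per 100 nt in IVSC and SNORD51 gave 72.2, while SNORD28 gave 6.58. SNORD64, an orphan of the imprinted Prader-Willi region read from 1 entry, lay between 10.3 and 20.1 RPM and was called in none of the 4 comparisons. It was not level, since its interval excluded 1 in each of them, as in SVSC against IVSC (1.49-fold lower, 1.26 to 1.76). SNORD111, from an intron of the splicing factor gene SF3B3, at 2.90 to 4.73 RPM, and SNORD88, at 2.60 to 3.38, were not called in any comparison either. SNORD95, from RACK1, at 17.6 to 33.4 RPM, was also not called, although counted once it was 1.83 times as high in SVSC as in IVSC (1.20 to 2.83).

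**Figure D1:**
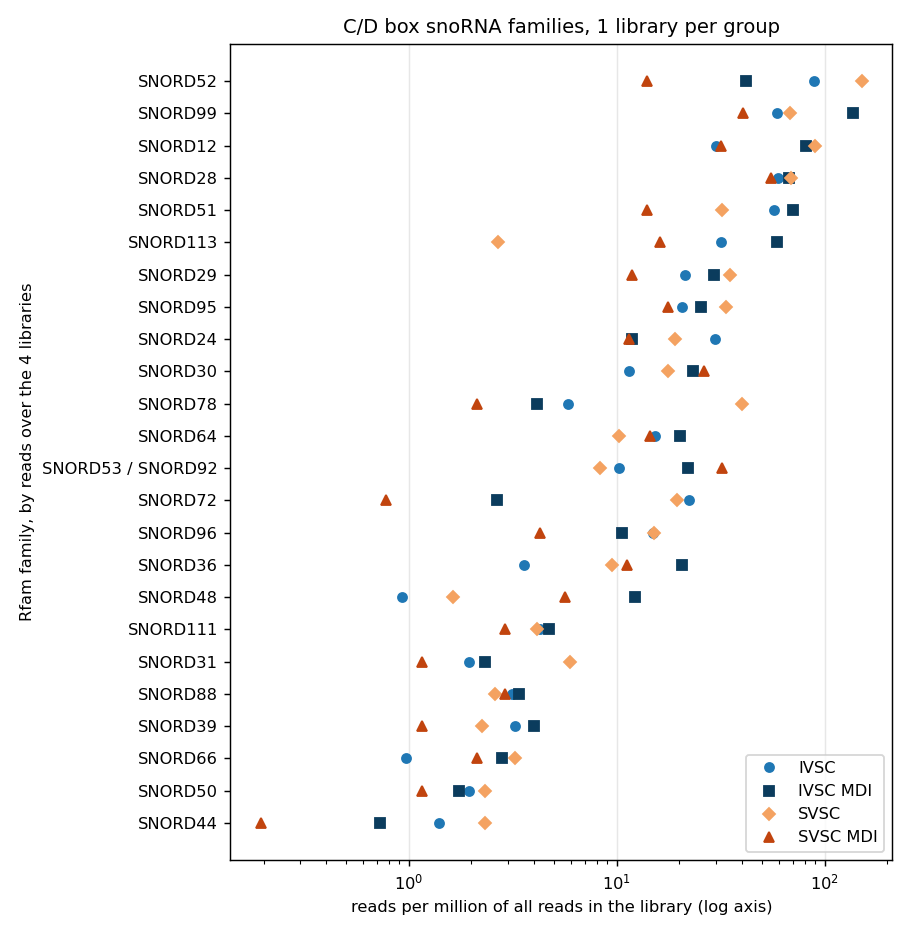
RPM of all reads in the library (log axis) for the 24 SNORD families with 100 or more reads, each point 1 library (n = 1 per group), ordered by reads over the 4 libraries. SNORD113 in SVSC lies at 2.68, far below its other 3 points, and SNORD72 and SNORD44 in SVSC MDI lie furthest to the left, at 0.774 and 0.194.

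The make-up of the SNORD reads shifted between libraries. SNORD52 made up 17.5% of them in IVSC and 23.2% in SVSC, but 6.27% in IVSC MDI and 4.22% in SVSC MDI. SNORD99 took the largest share in IVSC MDI, 20.5%, and SNORD28 in SVSC MDI, 16.8%. The lead of SNORD28 rests on shared reads: counted once it had 26 reads in SVSC MDI, and SNORD99 led with 161. The 5 leading families of each library held 56.4% to 64% of its SNORD reads, so the concentration on a few families differed little while the leading family changed. Without SNORD52, the SNORD sum in SVSC MDI was 1.59-fold lower than in SVSC, against 1.98-fold with it.

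**Figure D2:**
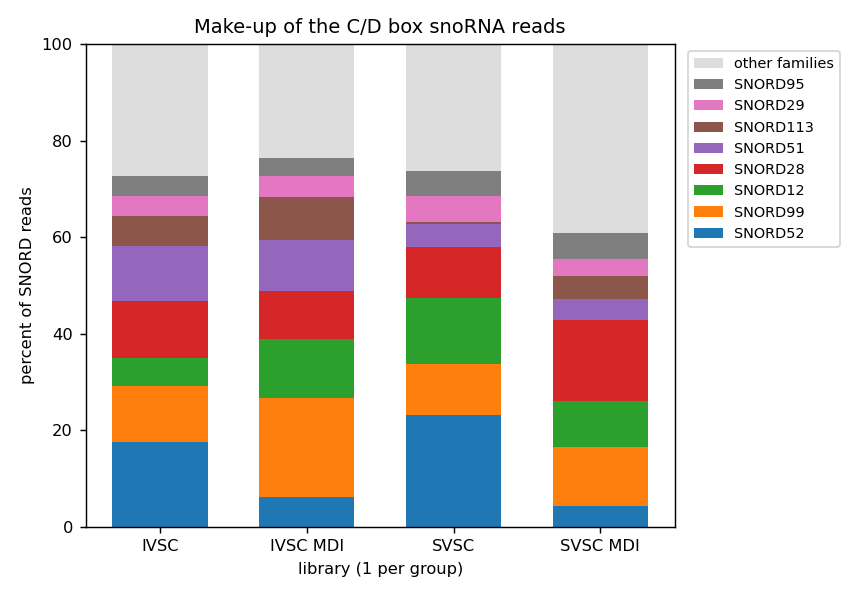
Percent of the SNORD reads of each library (1 per group) taken by the 8 families with the most reads, with all other families in light grey. SNORD52, at the bottom, holds 17.5% and 23.2% in IVSC and SVSC and 6.27% and 4.22% in the MDI libraries, and the SNORD113 band is 0.411% in SVSC.

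SNORD113 was the family with the largest difference between the undifferentiated cultures among the 24. It had 681 reads in IVSC and 1225 in IVSC MDI, which is 31.5 and 59.1 RPM, but 69 in SVSC and 83 in SVSC MDI, which is 2.68 and 16.1 RPM. Levels were thus high in both muscle libraries, lowest in undifferentiated SVSC and intermediate in SVSC MDI. SVSC was 11.8-fold lower than IVSC, and 13.5-fold lower on reads counted once (interval 8.75 to 22). SVSC MDI was 3.68-fold lower than IVSC MDI, and 5.53-fold lower counted once (3.57 to 9.02). No family in the files used here carries the name SNORD114, so SNORD114 could not be read separately. Whether entries filed under SNORD113 include copies of SNORD114 was not tested. The imprinted group is thus the Rfam family named SNORD113, with reads at 59 of its entries.

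MDI went with more SNORD113 fragments in the fat culture. SVSC MDI was 5.99 times SVSC, and 4.75 times counted once (2.49 to 9.06), resting on 21 and 22 reads. In IVSC MDI the level was 1.87 times that in IVSC, below the 2-fold needed for a call, and 1.94 times counted once (1.66 to 2.27). The leading entry alone gave 2.44 times and would have been called. The log2 response on reads counted once was larger in SVSC than in IVSC by 1.29 (0.40 to 2.18, an approximate 95% interval from the counting error on the log scale).

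Against the other 23 families SNORD113 stood at the edge in both comparisons that involve undifferentiated SVSC. For SVSC against IVSC its log2 ratio was -3.56, whereas the other 23 lay between -0.84 and 2.78 with a median of 0.26, all above it. For SVSC MDI against SVSC its log2 ratio was 2.58, and all 23 others lay below it, with a median of -0.92. Both comparisons share the SVSC library, whose low level sets both. For IVSC MDI against IVSC 16 families lay below SNORD113 and 7 above, and for SVSC MDI against IVSC MDI 2 lay below it on sums and 0 on reads counted once.

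SNORD113 made up 6.23% of the SNORD reads in IVSC and 8.85% in IVSC MDI, and 0.411% in SVSC and 4.87% in SVSC MDI. On reads counted once these shares were 3.43% (exact binomial interval 3.02 to 3.87), 4.85% (4.43 to 5.30), 0.184% (0.115 to 0.279) and 2.24% (1.39 to 3.41). The SVSC share lay below the other 3 intervals on that count. The miRNAs of the same domain moved with it between the cultures: 15 of 15 with 100 or more reads were lower in SVSC than in IVSC (median log2 ratio -3.45, miR-127 12.8-fold lower), where 23.1% of the 169 miRNAs with 100 or more reads were lower and 9.47% higher. In SVSC MDI 13 were lower than in IVSC MDI and 0 were higher, where 26% of the 169 were lower and 4.14% higher. Between MDI and undifferentiated libraries, 5 of the 15 were higher and 3 lower in SVSC, where 26% of all 169 miRNAs were higher and 27.2% lower, and miR-127 was 2.08-fold lower. In IVSC 1 was higher and 6 were lower, where 21.9% and 14.8% were. The muscle miRNA miR-206 also differed between the cultures in the direction of SNORD113, as given above. The other muscle miRNAs did so only in part: miR-1 was higher in SVSC than in IVSC, and miR-133a in SVSC MDI than in IVSC MDI. The part of these miRNAs was not tested.

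**Figure D3:**
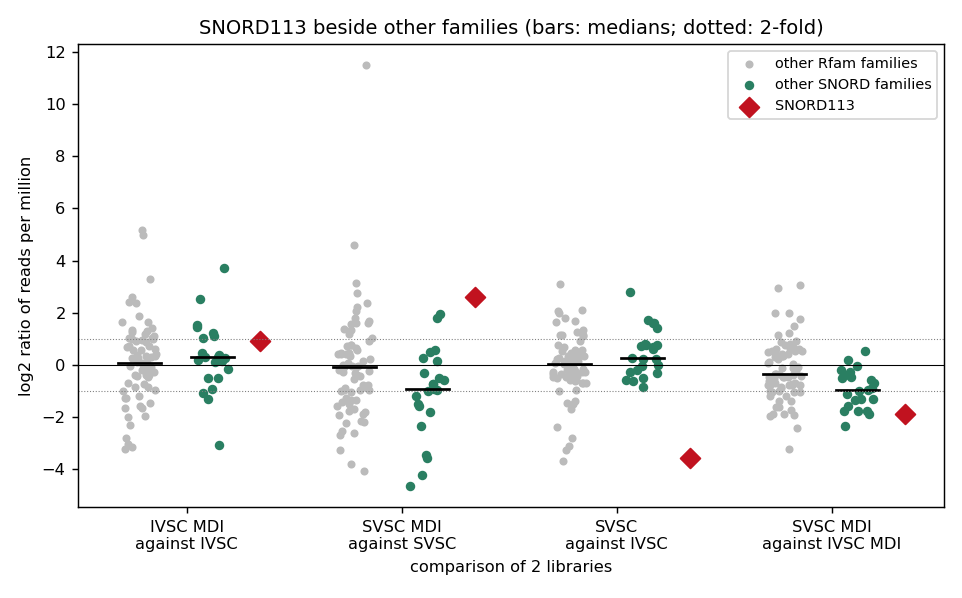
Log2 ratio of RPM in the 4 comparisons for SNORD113 (red diamond), the other 23 SNORD families (green) and the other 73 Rfam families with 100 or more reads (grey), with bars at the medians and dotted lines at 2-fold. SNORD113 lies below all green points for SVSC against IVSC, at -3.56, and above all of them for SVSC MDI against SVSC, at 2.58.

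In the muscle culture 7 of the 24 families were higher and 3 were lower in IVSC MDI than in IVSC, where 25.8% of all Rfam families were called higher and 18.6% lower. The median log2 ratio was 0.29 over the 24 and 0.25 over all 97 Rfam families, so the shares of calls and the median were near this background. The 97 include the 24. The other 73 families had a median of 0.06, with 24.7% called higher and 20.5% lower. The largest rise was that of SNORD48, a large-subunit guide and a widely used reference RNA in small RNA assays. It had 20 reads in IVSC and 254 in IVSC MDI (0.926 and 12.2 RPM), a ratio of 13.2 in RPM (interval 8.38 to 22). SNORD36, one of the snoRNAs of the ribosomal protein gene RPL7A, rose 5.76-fold from 3.57 to 20.5 RPM, 5.50-fold counted once (3.43 to 9.24). Both calls held under every scaling and counting that was tried.

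SNORD12, SNORD99 and SNORD66 also rose in IVSC MDI. SNORD12 was 2.71 times its level in IVSC, the same counted once (2.47 to 2.97). SNORD99 was 2.33 times, and 3.03 times counted once (2.81 to 3.28), although at 1.96 it missed the call when the median ratio of all Rfam families was set to 1. SNORD66, from an intron of the initiation factor gene EIF4G1, was 2.88 times, and 2.46 times counted once (1.17 to 5.52), on few reads. The calls of SNORD30 (2.02 times) and SNORD53/SNORD92 (2.14 times) were at the edge: the first was lost under both other scalings, at 1.84 and 1.70, and the second also on reads counted once, at 1.57. Reads counted once also added calls: SNORD39 (2.86 times) and SNORD50 (2.81 times, 1.32 to 6.51) were higher and SNORD96 was lower (2.08-fold, 1.69 to 2.58). For SNORD50 the direction turned, since its sum in IVSC MDI was 1.12-fold lower than in IVSC.

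Lower families in IVSC MDI were SNORD72, SNORD24 and SNORD52. SNORD72, from an intron of the ribosomal protein gene RPL37, went from 478 reads in IVSC to 55 in IVSC MDI (22.1 and 2.65 RPM), 8.35-fold lower and 8.68-fold lower counted once (5.78 to 13.6). SNORD24, which shares its host RPL7A with SNORD36, was 2.51-fold lower, and 6.87-fold lower counted once (5.14 to 9.34), so its size depends on how shared reads are counted. SNORD52 was 2.12-fold lower (2.19-fold counted once, 2.02 to 2.38). All 3 calls held under every setting.

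In the fat culture most changes went down. Of the 24 families 9 were lower and 3 were higher in SVSC MDI than in SVSC, where 30.9% of all Rfam families were called lower and 20.6% higher. The called families were 37.5% and 12.5% of the 24, near the background for lower calls. The median log2 ratio was -0.83 over the 24 and -0.31 over all 97 Rfam families. The other 73 families had a median of -0.10, with 28.8% called lower and 23.3% higher. With only 1705 SNORD reads in SVSC MDI, several of these values rest on a handful of reads. The largest well-counted decrease was that of SNORD52, from 3902 reads in SVSC to 72 in SVSC MDI (152 and 13.9 RPM), 10.9-fold lower and 11.9-fold lower counted once (9.34 to 15.5). SNORD78, one of the GAS5 snoRNAs, went from 1030 reads to 11, 18.8-fold lower (17.5-fold counted once, 7.97 to 47.8). SNORD72 went from 502 reads to 4, 25.2-fold lower, with a wide interval on reads counted once (24.5-fold, 6.71 to 203).

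The other decreases in SVSC MDI concerned SNORD12, SNORD29, SNORD31, SNORD96, SNORD44 and SNORD51. SNORD12 was 2.83-fold lower (2.87-fold counted once, 2.44 to 3.39). SNORD29 and SNORD31, both from SNHG1, were 2.96-fold and 5.12-fold lower. SNORD96, from the ribosomal scaffold gene RACK1, was 3.53-fold lower (5.01-fold counted once, 2.89 to 9.50). SNORD44, the other GAS5 family, had 60 reads in SVSC and 1 in SVSC MDI, 12.0-fold lower on sums and 7.03-fold lower counted once (1.18 to 285). The call of SNORD51 (2.30-fold lower) was lost under both other scalings, at 1.68 on hairpin reads and 1.85 with the Rfam median set to 1. The other 8 lower calls held under each other scaling and each other count alone. That of SNORD44 was lost when reads counted once were scaled to hairpin reads.

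Beside SNORD113, the families higher in SVSC MDI were SNORD48 and SNORD53/SNORD92. SNORD48 went from 42 reads in SVSC to 29 in the shallower SVSC MDI library (1.63 and 5.61 RPM), 3.44 times (interval 2.07 to 5.65). SNORD53/SNORD92, carried by WDR43, a gene of ribosome assembly, went from 8.28 to 32.1 RPM, 3.88 times on sums and 2.12 times counted once (1.19 to 3.65). These 3 higher calls held under every setting. SNORD30 was 1.49 times its level in SVSC and passed the call only under scaling to hairpin reads, at 2.04, or 2.16 counted once.

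Both cultures were then compared in their difference between MDI and undifferentiated libraries, which share no library. Called in both were SNORD48 and SNORD53/SNORD92 as higher and SNORD52 and SNORD72 as lower, while SNORD12 was higher in IVSC MDI and lower in SVSC MDI. On reads counted once SNORD53/SNORD92 dropped out of those higher in both, and SNORD96 joined those lower in both. Across the 24 families the log2 ratios of the 2 cultures had a Pearson correlation of 0.70 and a Spearman correlation of 0.61, and 14 had the same sign. These families are not independent replicates, since they share libraries, depth and in part host genes. On reads counted once, the SVSC response was below the IVSC response for 13 families with an interval that excluded 0, above it for 2 (SNORD113 and SNORD24), and not distinguishable for 9. Among the 13, the log2 difference was -2.96 for SNORD12 (-3.22 to -2.69) and -2.41 for SNORD99 (-2.67 to -2.16). For SNORD48 it was -1.94 (-2.89 to -0.996), so its rise was smaller in SVSC, with an interval that excluded 0. The counts of 13, 2 and 9 are on scaling to all reads. Scaling to hairpin reads shifts log2 ratios by -0.13 in IVSC and by 0.45 in SVSC, which raises each difference. The intervals of SNORD30, SNORD96 and SNORD50, with upper ends of -0.29, -0.41 and -0.09, would then span 0. Those of SNORD64 and SNORD111, with lower ends of -0.32 and -0.30, would lie above 0. The split of 13 against 2 thus depends on the scaling, and the full counts under hairpin scaling are not given. No share over all Rfam families stands beside these counts, so they are not read as a result about the SNORD families.

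**Figure D4:**
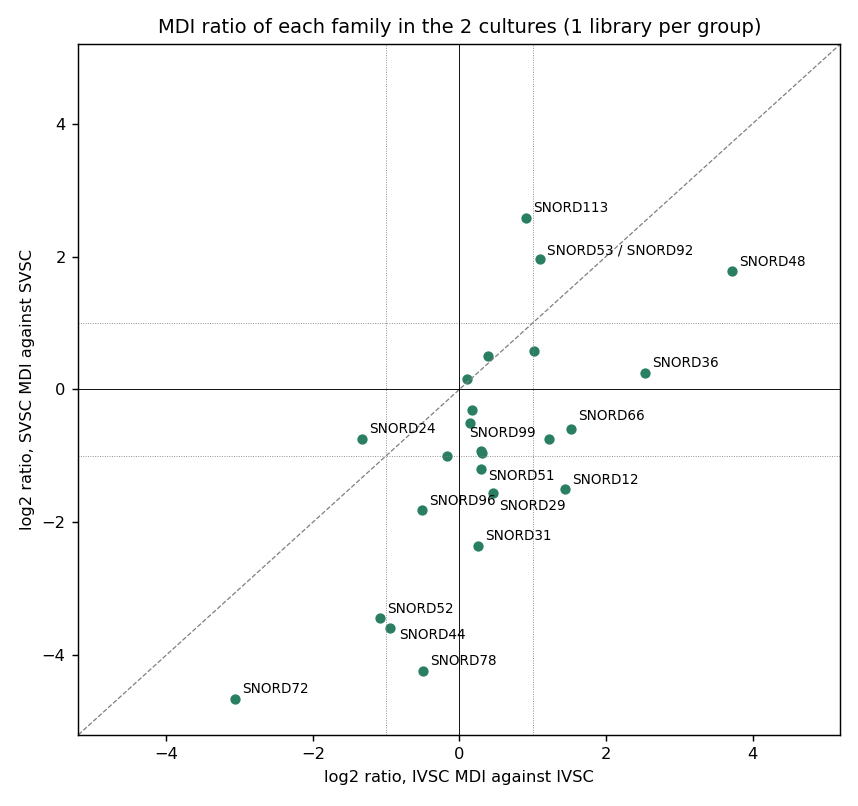
Log2 ratio of MDI against undifferentiated levels, both in RPM, in IVSC (x axis) and SVSC (y axis) for the 24 SNORD families, with the diagonal dashed and 2-fold lines dotted; families far from 0 are named. SNORD48 and SNORD53/SNORD92 lie past 2-fold to the upper right, SNORD52 and SNORD72 to the lower left, and SNORD12 to the lower right.

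Between the undifferentiated cultures 5 of the 24 families were higher and 1 was lower in SVSC than in IVSC, where 18.6% of all Rfam families were called higher and 10.3% lower. The higher calls, 20.8% of the 24, were near the background. The lower family was SNORD113. SNORD78 had the largest rise, from 126 reads in IVSC to 1030 in SVSC (5.84 and 40.0 RPM), 6.86 times and 6.64 times counted once (5.13 to 8.71). SNORD12 was 3.00 times its level in IVSC, the same counted once (2.75 to 3.28). SNORD66, SNORD31 and SNORD36 were 3.32, 3.06 and 2.65 times their levels in IVSC. All 6 calls held under each scaling and count. The median log2 ratio was 0.24 over the 24 families and 0.06 over all 97 Rfam families. The other 73 families had a median of 0.04, with 17.8% called higher and 12.3% lower. On reads counted once SNORD24 was also called, 2.72-fold lower in SVSC (2.26 to 3.28), against 1.55-fold on sums, and SNORD50 was called higher, 2.60 times (1.24 to 5.95), against 1.20 times on sums.

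After MDI no family was called higher in SVSC than in IVSC, where 6.19% of all Rfam families were, and 10 were called lower, where 27.8% of all Rfam families were. The lower calls were 41.7% of the 24. The median log2 ratio was -0.98 over the 24 families and -0.48 over all 97 Rfam families. The other 73 families had a median of -0.37, with 23.3% called lower and 8.22% higher. SNORD51 differed most among these, at 1452 reads in IVSC MDI and 72 in SVSC MDI (70.0 and 13.9 RPM), 5.02-fold lower and 5.17-fold lower counted once (4.06 to 6.69). SNORD113 followed, and SNORD99 was 3.38-fold lower (4.10-fold counted once, 3.49 to 4.83). SNORD52 was 3.00-fold lower. SNORD39 was 3.45-fold lower on 6 reads in SVSC MDI (4.11-fold counted once, 1.05 to 35.4). These 5 calls held under each other scaling and each other count alone, but that of SNORD39 was lost when reads counted once, 2 in SVSC MDI, were scaled to hairpin reads. The calls of SNORD12, SNORD29, SNORD72, SNORD96 and SNORD48 were lost under both other scalings, and that of SNORD72 also on reads counted once, so 5 of the 10 depend on the scaling. With either scaling 5 families were lower and 1, SNORD53/SNORD92, was higher.

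SnoRNA families of one host gene did not always move together. SNHG1 has 8 families in the files, and 4 of them passed the minimum. Of these 4, SNORD30 was called higher in IVSC MDI, SNORD29 and SNORD31 lower in SVSC MDI, SNORD31 higher in SVSC than in IVSC and SNORD29 lower in SVSC MDI than in IVSC MDI, while SNORD28 was called in no comparison. GAS5 has 7 families in the files and 2 described, SNORD78 and SNORD44, both lower in SVSC MDI, and SNORD78 higher in SVSC than in IVSC. The list of snoRNAs in ribosomal protein gene introns has 13 families in the files and 2 described, SNORD24 and SNORD36, which went opposite ways in IVSC MDI. SNORD72 is not on that list. SNORD50, the SNHG5 family, lay between 1.16 and 2.33 RPM and was called in no comparison on sums, with the counted-once calls given above. Under SNORD names, families of NOP56 introns (2 in the files) and of pre-rRNA processing (2 in the files) had 10 and 90 reads over the 4 libraries. None was described, and no family of the U6 snRNA guides was in the files under such a name. U3 is listed under its own name and is not in these counts. Counts of these lists are too small to set against the background.

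Pairs from one host gene were set side by side within each library, where scaling cancels; these pairs were chosen after their values were seen. In SNHG32, SNORD52 had 95.7 times the reads of SNORD48 in IVSC and 92.9 times in SVSC, but 3.42 times in IVSC MDI and 2.48 times in SVSC MDI. The ratio was thus alike in both undifferentiated libraries and alike in both MDI libraries, and on reads counted once it was 94.3, 90.7, 3.26 and 2.21. In RPL7A, SNORD24 had 8.30 times the reads of SNORD36 in IVSC and 2.02 times in SVSC, while SNORD36 had 1.74 times the reads of SNORD24 in IVSC MDI and both were near equal in SVSC MDI (58 and 59 reads). The same shift was seen in reads counted once, where SNORD24 had 18.0 times the reads of SNORD36 in IVSC and SNORD36 had 2.09 times those of SNORD24 in IVSC MDI. In GAS5, SNORD78 had 4.20, 5.73, 17.2 and 11 times the reads of SNORD44, the last from 11 reads and 1 read. In RACK1 the order turned with the counting: SNORD95 had 1.37 to 4.14 times the reads of SNORD96 on sums, but SNORD96 had 1.63 to 8.41 times those of SNORD95 counted once.

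**Figure D5:**
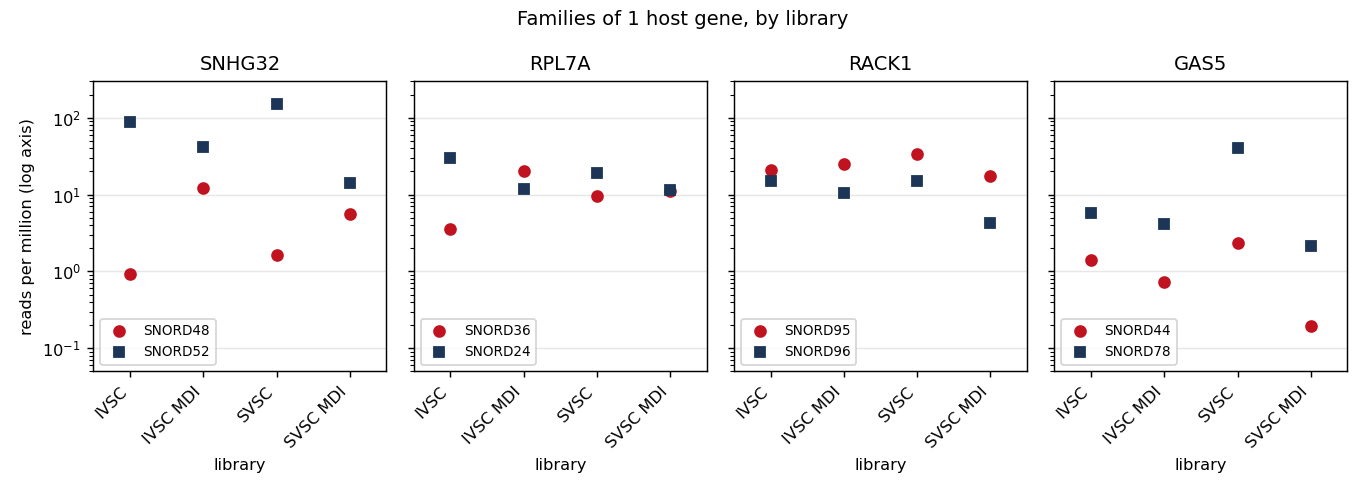
RPM (log axis) of both families of 4 host genes in each library (1 per group): SNHG32, RPL7A, RACK1 and GAS5. In SNHG32 the points of SNORD52 and SNORD48 are 95.7 and 92.9 times apart in IVSC and SVSC and 3.42 and 2.48 times apart in the MDI libraries, and in RPL7A their order turns in IVSC MDI.

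Several families of interest were too rare to describe. SNORD116, of the imprinted Prader-Willi region, had 6 reads in IVSC and 36 in IVSC MDI, and 4 in SVSC and 3 in SVSC MDI, and SNORD107 and SNORD115 of the same region had 6 reads and 1 read over the 4 libraries. SNORD112, of the DLK1-DIO3 list, also had 1 read. A family with 0 reads could lie at up to 0.139 RPM in IVSC and 0.145 in IVSC MDI, and up to 0.117 in SVSC and 0.581 in SVSC MDI, the level of 3 reads. Reads were found for 56, 52, 58 and 39 SNORD families in the same order, so the count of families is lowest in the shallowest library.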

How the data were processed

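The authors deposited 1 table of raw counts per library, with features from 4 resources (pig hairpins, Ensembl non-coding RNAs, piRNAs and Rfam) per the file headers. The submitters' processing notes name mm9 without its role. Aligner, mismatches allowed and the rule for reads that fit several entries were not given in the sources used here. Total counts were used. The Unique mature column of the SVSC file holds other, partly damaged values in tRNA entries, and SNORD entries only were read from it. Left out were 3 features without a resource in the SVSC file and 1 unnamed SVSC MDI entry holding 4071523.

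Reads were summed per family and divided by all reads of the library. Ratios have exact Clopper-Pearson 95% intervals conditional on both libraries' reads (Python 3.11.15, NumPy 2.4.6, SciPy 1.17.1, Matplotlib 3.10.9). The code was run on simulated independent counts, as the intervals assume. That run held no shared or duplicated reads and cannot show how the intervals do on the real sums. Intervals of differences between log2 ratios use the normal approximation. Both kinds of interval cover counting error at most, since PCR reads are not independent molecules and sums hold shared reads more than once. A 0 was set to 3 reads. No p-value can be given with 1 library per group.

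Alternatives were scaling to hairpin reads or to the Rfam median, the largest entry only, other minimum reads and, chosen after seeing the data, reads counted once, also with hairpin scaling. The text names the 24 families of the rule and details SNORD113, the 10 others with most reads and, per comparison, the 3 called families with the highest and the 3 with the lowest ratio. Families and lists were chosen with earlier results of these data known. Ensembl transcripts are listed by identifier only and were not matched to snoRNAs, so a family may have further reads there. No snoRNA sequence or coordinate is reported.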

Additional observations from a re-analysis of the deposited data

Results flagged for a closer look

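SNORD12 is listed here because it was called in opposite directions in the 2 cultures. Its log2 ratio of MDI against undifferentiated was 1.44 in IVSC, from 647 and 1682 reads, and -1.50 in SVSC, from 2313 and 164 reads. The SVSC response minus the IVSC response was -2.94 on summed reads. With 1 library per group this difference was not tested. The levels were 29.97 RPM in IVSC and 81.1 in IVSC MDI, and 89.9 in SVSC and 31.7 in SVSC MDI, so the order of the cultures turned with MDI. The lower share of hairpin reads in SVSC MDI, 55%, moved with the second ratio, and its part was not tested; scaled to hairpin reads, SNORD12 was still 2.07-fold lower in SVSC MDI than in SVSC.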

How the results depend on the processing

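No paired analysis was possible because each group has 1 library, and no library could be left out. Of the family ratios that were called under any setting, 2 turned their direction, neither of them called on sums. SNORD50 in IVSC MDI against IVSC was 1.12-fold lower on sums but 2.81 times counted once and 2.56 times counted once on hairpin reads. SNORD24 in SVSC MDI against IVSC MDI was 1.03-fold lower on sums but 2.23 times counted once on hairpin reads. The ratio of all SNORD reads did not turn its direction, but it moved with the scaling and the counting. For IVSC MDI against IVSC it was 1.32, and 1.20 on hairpin reads, 1.11 with the Rfam median set to 1, 1.39 on the largest entries and 1.37 counted once. For SVSC MDI against SVSC it was 0.505, and 0.692, 0.627, 0.368 and 0.391 in that order. For SVSC against IVSC it was 1.29, and 1.20, 1.24, 1.39 and 1.37. For SVSC MDI against IVSC MDI it was 0.494, and 0.692, 0.690, 0.369 and 0.392. Counted once and scaled to hairpin reads, it was 1.25, 0.535 and 0.548 for the first, second and last of these comparisons. The median scaling shifts log2 ratios by the Rfam medians of 0.25, -0.31, 0.06 and -0.48.

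The counts below are out of 24 families at the minimum of 100 reads, 72 with no minimum and a smaller set at 1000 reads. Counted once, 12 of all 97 Rfam families were lower in SVSC than in IVSC. For hairpin and median scaling, the largest entries and other minima no share of all Rfam families is given. Counts under those settings are therefore not read as a result about the SNORD families. Families higher in IVSC MDI numbered 7, but 4 under the median scaling, 12 with no minimum and 4 with at least 1000 reads. Those higher in SVSC MDI numbered 3, and 6 with no minimum. For SVSC against IVSC 5 were higher, with 9 at no minimum and 2 at 1000 reads, and 1 was lower, with 2 on the largest entries, 5 at no minimum and 2 counted once, with either scaling. For SVSC MDI against IVSC MDI 0 were higher and 10 lower, with 1 higher and 5 lower under each other scaling, 1 higher and 4 lower counted once on hairpin reads, and 4 higher at no minimum.

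The SNORD113 share of SNORD reads on the largest entries was 2.49% in IVSC and 4.38% in IVSC MDI, and 0.112% in SVSC and 1.99% in SVSC MDI, and 3.43%, 4.85%, 0.184% and 2.24% counted once. Its log2 ratio minus the median of the other families was 0.61 for IVSC MDI against IVSC (0.90 on the largest entries), 3.51 for SVSC MDI against SVSC (2.92 counted once), -3.82 for SVSC against IVSC (-4.70 and -4.47) and -0.92 for SVSC MDI against IVSC MDI (-1.78 and -1.61). The cause of these shifts was not tested. The 1705 SNORD reads of SVSC MDI limit its values most.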
